A study of Mus musculus with 9 samples.

Results

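This account covers 10 genes of the HSP90 chaperone system: the HSP90 paralogs Hsp90aa1, Hsp90ab1 and Trap1, the co-chaperones Cdc37, Stip1, Ptges3, Ahsa1, Chordc1 and Fkbp4, and the heat shock transcription factor Hsf1. They were taken by gene symbol, and all 10 were among the 16509 genes of the deposited table and among the 11949 genes that passed the filter on low counts and were tested. RNA came from MC38, a mouse colon carcinoma cell line, in 9 libraries. They comprised 3 of control cells (Ctrl), 3 of cells given the copper and cystine preparation Cu-Cys, and 3 of cells given Cadict, a nanomedicine that joins Cu-Cys with glucose oxidase and the GE11 peptide. The control vehicle is DMSO in the sample labels and PBS in the study's text. No dose or time of treatment was stated for these libraries. The deposited columns named CC and CCGE were read as Cu-Cys and Cadict, of which the second was inferred from the components. The labels number 3 replicates a group, and the study says in general terms that its in vitro work was repeated independently. Neither describes the cultures behind these libraries, and the p-values measure the spread between the libraries.

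HSP90 is an ATP-driven chaperone that works as a dimer on proteins already partly folded, among them many kinases and steroid receptors. Co-chaperones bind the dimer at successive steps: they bring clients, hold or speed the ATPase cycle, or hand substrates over from HSP70. HSP90 also helps to keep HSF1, the main transcription factor of the heat shock response, in an inactive form, and HSF1 released by protein damage binds heat shock elements, runs of alternating GAA and TTC units, in the promoters of chaperone genes. HSF1 activity is known to be set mainly at the protein level, by trimer formation and modification, and not by the amount of its mRNA.

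With Cadict, both cytosolic HSP90 genes and 5 of the 6 co-chaperones rose over Ctrl, from a log2 fold change of 1.82 for Fkbp4 to 3.37 for Chordc1 with TMM scaling and from 0.51 to 2.05 for the same genes with the deposited TPM. The kinase co-chaperone Cdc37 and Hsf1 differed by less, and the direction of both depended on how the libraries were scaled. Trap1, the mitochondrial paralog, was lower, at -0.28 with TMM scaling beside a median of -0.13 over all genes. With Cu-Cys alone, 8 of the 10 genes were higher than in Ctrl with TMM scaling, by at most 0.46 on the log2 scale. Trap1 and Hsf1 did not pass the test. Hsp90aa1 did not pass with library totals, and only Chordc1, Ahsa1 and Ptges3 passed with the deposited TPM.

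Promoter sequences were taken from RefSeq on build GRCm38.p6, where 7 of the 10 genes had a window of 250 bases before and 50 bases from the annotated start site on. Hsp90aa1, Hsp90ab1 and Hsf1 had no window. Each window was searched for 2 alternating heat shock element units, spelled GAANNTTC or TTCNNGAA, each of which is its own reverse complement, and for 3 such units in a row, which contain the form with 2. Of 32851 mouse windows of this length, 15.1% held 2 units and 0.603% held 3. The window of Chordc1, the gene that rose most, held 5 matches to 2 units and 3 matches to 3 units. In 4 of the 5, the matched letters overlapped in a run from position -4 to 19 around the start, and the fifth lay at 34 to 41. Fkbp4 held 1 match to 2 units, at -151 to -144, and Cdc37 held 1, at -170 to -163. Trap1, Ahsa1, Stip1 and Ptges3 held none in this window, and only Stip1 of the 7 held the letters TATAAA on the gene's strand, at -30 to -25, which 8.32% of all windows contain. The sequences below run 5′ to 3′ on each gene's strand from 200 bases before the start to 29 after it, with the matched units in capitals. They are shown because they pair the largest rise (Chordc1) and a smaller rise (Fkbp4) with a gene whose direction was not settled (Cdc37) and with the second largest rise, which had no match (Ahsa1).
Chordc1, chr9:18292067-18292295, plus strand: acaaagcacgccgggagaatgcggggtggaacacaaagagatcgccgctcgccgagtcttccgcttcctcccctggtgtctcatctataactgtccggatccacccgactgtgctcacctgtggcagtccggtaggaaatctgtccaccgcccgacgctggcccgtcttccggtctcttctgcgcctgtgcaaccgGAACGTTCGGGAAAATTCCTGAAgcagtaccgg
Fkbp4, chr6:128438628-128438856, minus strand: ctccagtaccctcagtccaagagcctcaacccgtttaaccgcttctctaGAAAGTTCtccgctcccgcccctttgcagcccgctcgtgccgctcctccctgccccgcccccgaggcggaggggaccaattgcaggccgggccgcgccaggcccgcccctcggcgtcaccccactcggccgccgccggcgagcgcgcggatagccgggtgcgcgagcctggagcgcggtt
Cdc37, chr9:21149906-21150134, minus strand: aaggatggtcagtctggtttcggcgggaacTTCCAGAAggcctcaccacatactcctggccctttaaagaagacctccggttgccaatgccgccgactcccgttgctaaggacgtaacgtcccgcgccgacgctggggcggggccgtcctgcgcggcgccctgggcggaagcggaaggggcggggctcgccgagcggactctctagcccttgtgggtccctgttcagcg
Ahsa1, chr12:87266528-87266756, plus strand: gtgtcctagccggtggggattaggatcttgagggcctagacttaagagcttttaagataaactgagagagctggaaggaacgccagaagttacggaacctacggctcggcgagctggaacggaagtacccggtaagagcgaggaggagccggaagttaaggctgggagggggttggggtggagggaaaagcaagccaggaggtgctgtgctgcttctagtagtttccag

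**Figure D1:**
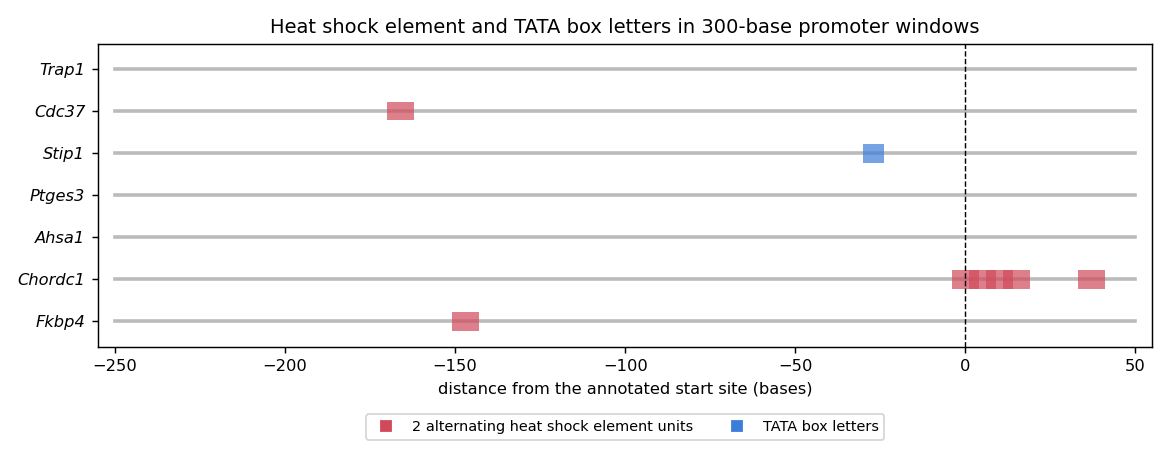
Positions of heat shock element letters (red, 2 alternating units) and of TATA box letters (blue) in the promoter windows of 7 genes, with the distance from the annotated start site in bases on the x axis and 1 gene per line. The dashed line is the start site. Chordc1 carries 4 overlapping matches across the start and 1 further on, Cdc37 and Fkbp4 carry 1 each, and Stip1 carries the TATA box letters.

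Libraries held 17905769 to 18293060 expected counts. The TMM method, which scales libraries on the assumption that most genes do not change, gave factors of 1.26 to 1.27 to Ctrl, 1.21 to Cu-Cys and 0.640 to 0.665 to Cadict libraries. Over all tested genes, the median log2 difference between Cadict and Ctrl was -0.13 with TMM, -0.0063 with DESeq2's size factors and -1.08 with library totals, so the choice of scaling moved every Cadict value by about 1 on the log2 scale. Cadict replicate 2 stood apart from its group, with a chi-square per gene of 14.7 and 23.1 against the other Cadict libraries and 3.64 between those, where pairs of Ctrl and Cu-Cys libraries gave 1.88 to 4.53. Epcam, which marks carcinoma epithelium, was at 0 TPM in the Ctrl and Cu-Cys libraries, and the 6 epithelial markers in the table summed to at most 13.2 TPM, whereas the mesenchymal marker Vim averaged 2919 TPM in Ctrl and 1175 TPM in Cadict. The summed 5 leukocyte markers, nearly all Cd68, ranged from 6.92 to 7.5 TPM in Ctrl, from 4.68 to 5.73 in Cu-Cys and from 14.9 to 18.3 in Cadict, with Ptprc below 0.1 TPM throughout. The part of these markers in the results was not tested. In such bulk libraries, fewer cells and less RNA per cell cannot be told apart.

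Levels were compared between genes as TPM, which divides by transcript length. In Ctrl libraries Hsp90ab1 stood 14th among all genes, at a mean of 4905 ± 42.2 TPM (SD, n = 3), and Hsp90aa1, the stress-inducible cytosolic paralog, stood 58th to 66th at 2334 ± 77.3 TPM. The co-chaperones followed, from Stip1 at 597 TPM through Fkbp4 at 415, Ahsa1 at 362, Ptges3 at 352 and Cdc37 at 258 to Chordc1 at 149.8. Trap1 was next at 139 TPM, and Hsf1 was the lowest at 58.0 TPM. Neighbours in this order were apart in all 3 Ctrl libraries except Ahsa1 and Ptges3, which overlapped. The order was the same in Cu-Cys libraries. In Cadict libraries Hsp90ab1 stood 7th to 11th and Hsp90aa1 16th to 44th, Fkbp4 moved below Ahsa1, Ptges3 and Chordc1, and Chordc1 averaged 628 TPM. Chordc1 and Fkbp4 overlapped there, as did Stip1 and Ahsa1. The 10 genes together took 1.21% ± 0.00663 of all counts in Ctrl, 1.37% ± 0.0214 in Cu-Cys and 3.05% ± 0.0912 in Cadict libraries (SD, n = 3), a share that does not depend on TMM.

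**Figure D2:**
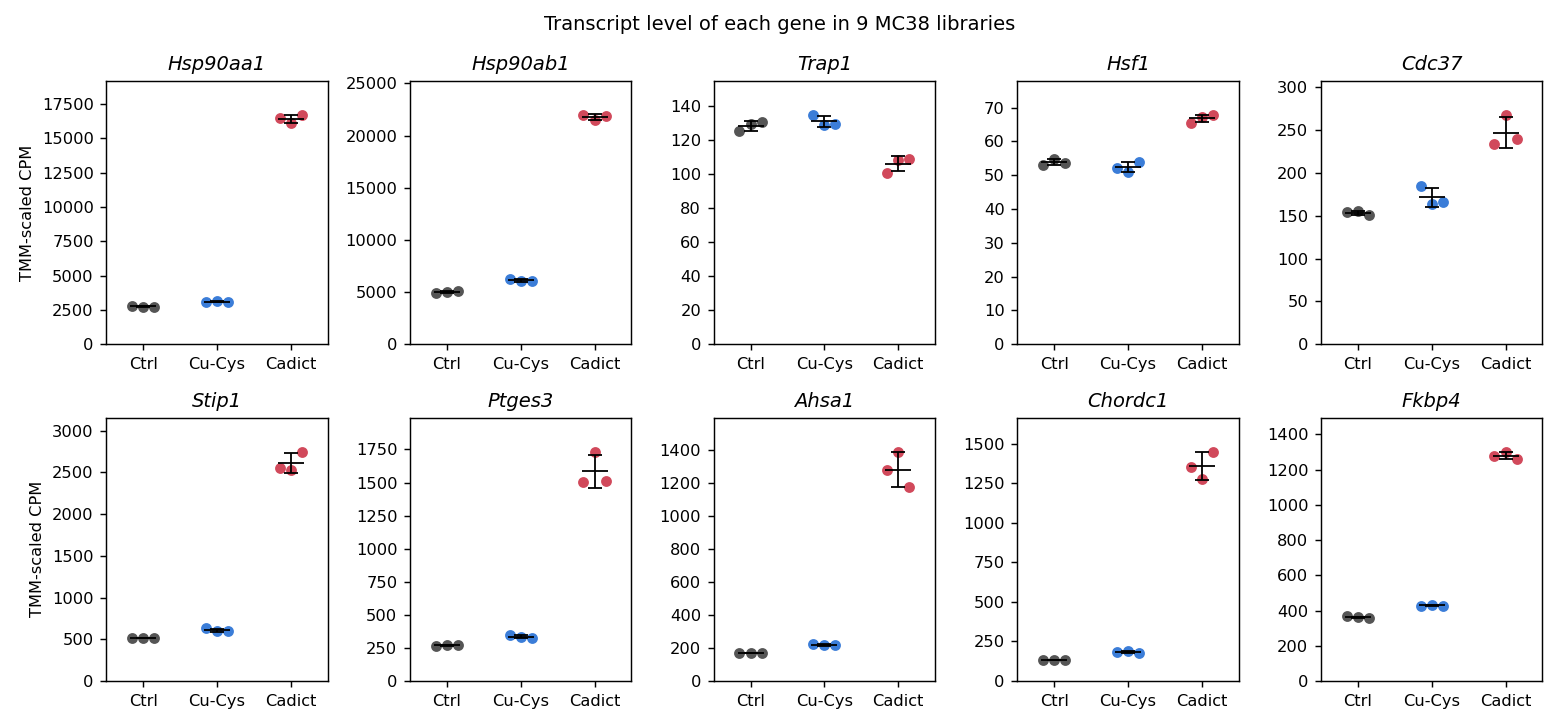
TMM-scaled CPM (counts over the scaled library total, y axes from 0) of each of the 10 genes in the 9 libraries, by group on the x axes. Points are libraries, the bars give the mean and SD of 3. Of the 10 genes, 7 sit far above both other groups in Cadict, Cdc37 and Hsf1 sit slightly above, and Trap1 sits below, on this scale.

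Cadict against Ctrl asked what the complete nanomedicine did to the transcripts of these cells. A gene was called where it met the study's threshold (an adjusted p no higher than 0.001 together with a change of 2-fold or more), and was said to have passed the test, or to have risen or fallen, where its adjusted p did not exceed 0.05. All p-values are those of edgeR's quasi-likelihood test, adjusted by Benjamini-Hochberg over the 11949 genes. Of the 10 genes, 7 were called higher and 0 lower, where 20.7% of all tested genes were called higher and 27.1% lower. At the looser threshold 9 passed as higher and 1 (Trap1) as lower, against 40.6% and 47.1% of all genes. Cadict and Ctrl libraries did not overlap for any of the 10, which was also true of 87.5% of all genes. The median log2 fold change of the 10 was 2.23, beside -0.13 over all genes.

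Both cytosolic paralogs were among the 7 called genes. Hsp90aa1 had 2806, 2717 and 2747 CPM (TMM-scaled) in the Ctrl libraries, 3093, 3126 and 3073 in Cu-Cys and 16472, 16100.5 and 16686 in Cadict. Every Cadict library lay far above the other 6, and every Cu-Cys library lay slightly above Ctrl. Its log2 fold change was 2.57 ± 0.0456 (SE) in Cadict against Ctrl (edgeR, adjusted p = 2.85e-16), higher than that of 96.4% of all tested genes. Hsp90ab1, the constitutive paralog, had 4954, 5002 and 5062 CPM in Ctrl, 6287, 6053 and 6030.0 in Cu-Cys and 21932, 21474 and 21900 in Cadict. The 3 groups did not overlap, and the spread within each was small beside the steps between them. Its log2 fold change over Ctrl was 2.12 ± 0.0450 (edgeR, adjusted p = 1.43e-15). Transcript sequence that Hsp90aa1 shares with other genes makes its level less certain: 47.5% of its 50-base stretches also occur in annotated pseudogenes, chiefly Gm12346 and Gm5844, against 3.44% for Hsp90ab1. Reads of such pseudogenes were not analysed here, and their part in the result was not tested.

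Because both paralogs were measured in every library, their ratio is free of library scaling. The FPKM of Hsp90aa1 divided by that of Hsp90ab1 was 0.489, 0.469 and 0.469 in Ctrl, 0.425, 0.446 and 0.441 in Cu-Cys and 0.649, 0.648 and 0.659 in Cadict. The ratio was thus highest in Cadict libraries and lowest in Cu-Cys libraries, with no overlap between groups. On the log2 scale the ratio differed by 0.45 between Cadict and Ctrl, by -0.12 between Cu-Cys and Ctrl and by 0.58 between Cadict and Cu-Cys. Each gave p = 0.1 in a two-sided exact permutation test (adjusted 0.1 over the 3), the smallest that 3 against 3 libraries allow, so this design could not pass 0.05. In these libraries the ratio differed between groups, though no comparison could pass, and Hsp90ab1 remained the more abundant per length in every library. The sequence that Hsp90aa1 shares with pseudogenes makes this ratio less certain too, and its part was not tested.

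Trap1, which serves the mitochondrial matrix, did not follow them. It had 125, 129 and 130.4 CPM in Ctrl, 134, 129 and 129 in Cu-Cys, and 100.8, 108 and 109 in Cadict. Cadict libraries were the lowest and the other groups overlapped. The log2 fold change of Cadict against Ctrl was -0.28 ± 0.0499 (edgeR, adjusted p = 8.67e-05), -0.15 relative to the median of all genes. With library totals in place of TMM, Trap1 fell by 1.23 and was called lower, beside a median of -1.08 over all genes. In that setting 6976 of the 11949 tested genes were called in either direction. Per 100 FPKM of both cytosolic paralogs, Trap1 made up 1.92 ± 0.0403 in Ctrl, 1.65 ± 0.0178 in Cu-Cys and 0.326 ± 0.0158 in Cadict (SD, n = 3). Both cytosolic paralogs rose in Cadict, so a gene without change would also fall on this measure.

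**Figure D3:**
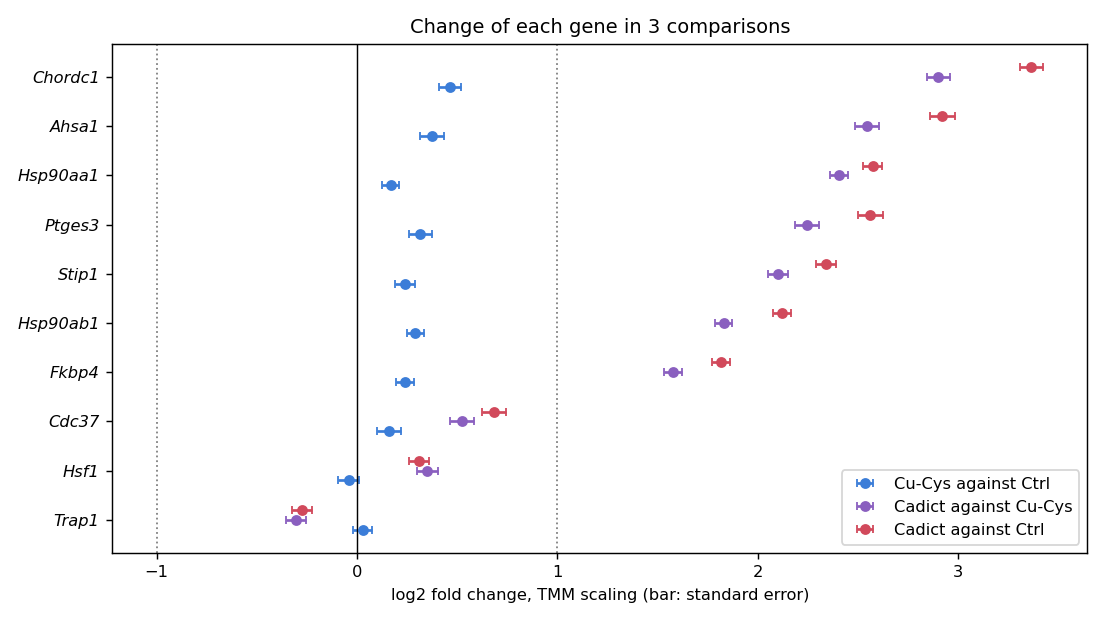
Log2 fold change with its standard error (x axis, TMM scaling) of each of the 10 genes (y axis) in Cu-Cys against Ctrl (blue), Cadict against Cu-Cys (purple) and Cadict against Ctrl (red). Dotted lines mark a fold change of 2. In both Cadict comparisons 7 genes lie beyond the right dotted line, whereas all values of Cu-Cys against Ctrl lie between -0.042 and 0.46.

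Among the co-chaperones, Chordc1 and Ahsa1 had the largest rises. Chordc1, a CHORD-domain protein that binds the HSP90 N-terminal domain, had 129.7, 134.5 and 131 CPM in Ctrl, 184, 186 and 174 in Cu-Cys and 1353, 1274 and 1447 in Cadict. The groups were apart in both steps. Its log2 fold change of 3.37 ± 0.0589 over Ctrl (edgeR, adjusted p = 2.65e-16) exceeded that of 98.1% of all tested genes and was the largest of the 10, which was also so with DESeq2's size factors, library totals and TPM. Chordc1 is the gene whose start site carries the run of heat shock element units shown above. Whether that run had a part in the rise was not tested, and Ahsa1, Ptges3 and Stip1 rose with no match in their windows. Ahsa1 encodes AHA1, which stimulates the HSP90 ATPase, and had 169.5, 170.1 and 167 CPM in Ctrl, 225, 215 and 217 in Cu-Cys and 1281, 1387 and 1176 in Cadict. Its fold change over Ctrl was 7.58, or 2.92 ± 0.0611 on the log2 scale (edgeR, adjusted p = 1.23e-15).

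Ptges3 encodes p23, which stabilises the closed, ATP-bound dimer. Its values were 261, 272 and 271 CPM in Ctrl, 344, 334 and 322 in Cu-Cys and 1507, 1730.1 and 1513 in Cadict, and its log2 fold change over Ctrl was 2.56 ± 0.0606 (edgeR, adjusted p = 4.38e-15). The Cadict replicate that stood apart was the highest of its group here and for Ahsa1, Cdc37 and Fkbp4, and the lowest of its group for Chordc1, Stip1 and both cytosolic HSP90 genes. Of the 50-base stretches of Ptges3, 19.6% also occur in other annotated genes, mainly the pseudogene Ptges3-ps, which averaged 11.7 ± 0.648 CPM in Ctrl and 74.9 ± 8.07 in Cadict. The split of reads between the gene and its copy is therefore uncertain.

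Stip1 encodes HOP, the adaptor that holds HSP70 and HSP90 together while a client passes between them. It had 517, 516 and 513 CPM in Ctrl, 629, 599 and 599 in Cu-Cys and 2560, 2528 and 2745 in Cadict. The groups did not overlap, and the log2 fold change over Ctrl was 2.34 ± 0.0504 (edgeR, adjusted p = 1.65e-15). Fkbp4 encodes FKBP52, an immunophilin found in steroid receptor complexes, and had 366, 362 and 360.1 CPM in Ctrl, 427, 433 and 426 in Cu-Cys and 1279, 1300.1 and 1259 in Cadict. It was the smallest of the 7 called rises, at 1.82 ± 0.0446 (edgeR, adjusted p = 6.15e-15). With library totals it was 0.86 and no longer called, and Hsp90ab1 stood at 1.17, so that 6 genes were called higher and Trap1 lower, where 6976 of the 11949 tested genes were called in either direction. With the deposited TPM, Hsp90ab1 (0.81) lost its call as well as Fkbp4 (0.51), which left 5 genes called higher and Trap1 lower. On TPM 6854 of 16503 genes were called in either direction, and the median of all genes was -0.59.

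Cdc37, which loads kinase clients onto HSP90, was set apart from the other co-chaperones. Its CPM were 154, 155 and 151 in Ctrl, 184, 164 and 166 in Cu-Cys and 233, 267 and 240 in Cadict. On this scale the groups were apart and the log2 fold change was 0.69 ± 0.0605 (edgeR, adjusted p = 2.58e-08). With library totals it was -0.27, and with the deposited TPM, which fell from a mean of 258 in Ctrl to 166 in Cadict, it was -0.63, so no direction over Ctrl can be given that holds under each scaling. Its value was the lowest of the 6 co-chaperones under TMM, DESeq2's size factors, library totals and TPM.

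Hsf1 was the lowest of the 10 genes per length, although it stood 2823rd to 3102nd by TPM among the 16509 genes. It had 53.1, 54.9 and 53.7 CPM in Ctrl, 52.1, 51.0 and 53.9 in Cu-Cys and 65.5, 67.2 and 67.7 in Cadict. The Cadict libraries were slightly above the rest, and Ctrl and Cu-Cys overlapped. The log2 fold change of Cadict against Ctrl was 0.31 ± 0.0519 (edgeR, adjusted p = 4.16e-05), but it was -0.64 with library totals and -0.95 with TPM, where the mean went from 58.0 in Ctrl to 29.7 in Cadict. As with Cdc37, the direction rested on the scaling.

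**Figure D4:**
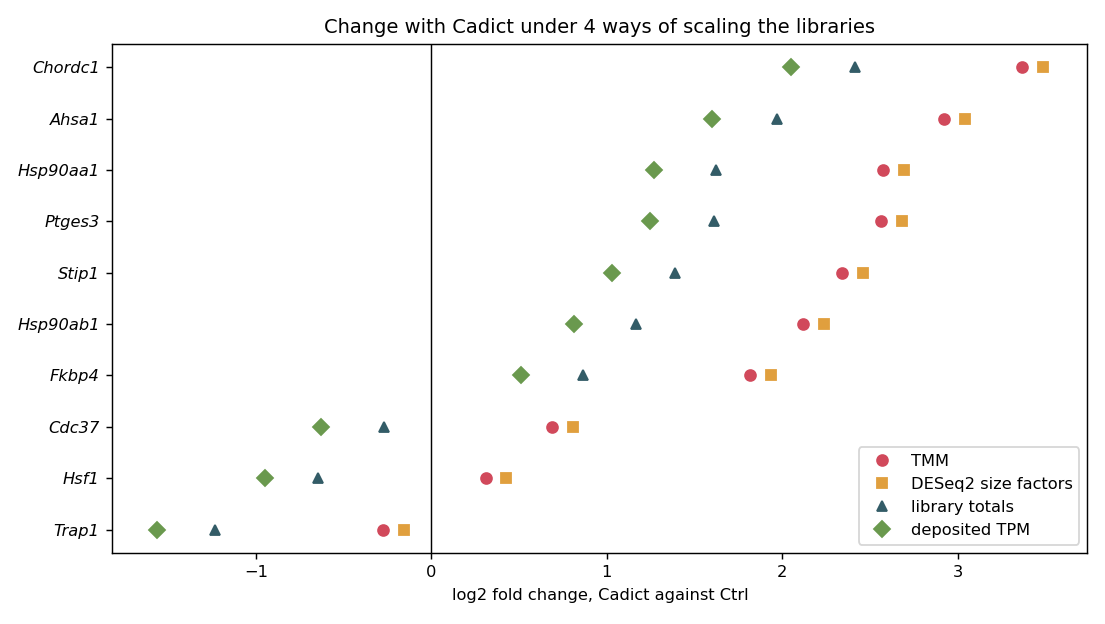
Log2 fold change of Cadict against Ctrl (x axis) of each of the 10 genes (y axis) under TMM (red circles), DESeq2 size factors (orange squares), library totals (dark triangles) and deposited TPM (green diamonds). The order of the genes is nearly the same under each. Of the 10 genes, 7 lie above 0 and Trap1 below 0 under all 4, and Cdc37 and Hsf1 lie on either side of 0.

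Relative to cytosolic HSP90 within the same library, a measure without scaling between libraries, the co-chaperones differed from each other. Stip1 kept pace: per 100 FPKM of Hsp90aa1 plus Hsp90ab1 it stood at 8.24 ± 0.0731 in Ctrl, 8.17 ± 0.113 in Cu-Cys and 8.57 ± 0.305 in Cadict (SD, n = 3). Chordc1 outran it, from 2.07 ± 0.0478 in Ctrl through 2.40 ± 0.0735 in Cu-Cys to 4.38 ± 0.224 in Cadict. Ahsa1 went from 5.001 ± 0.0605 through 5.43 ± 0.0851 to 7.75 ± 0.749, and Ptges3 from 4.86 ± 0.114 through 5.08 ± 0.1004 to 5.90 ± 0.560. In these 3 genes each Cadict library was above each Ctrl library. That was also so for Stip1, by a small margin (8.354 to 8.916 in Cadict, 8.158 to 8.287 in Ctrl). Fkbp4 was lower in all Cadict libraries, at 4.15 ± 0.124 against 5.73 ± 0.0683 in Ctrl and 5.68 ± 0.109 in Cu-Cys. Cdc37 dropped from 3.56 ± 0.0678 in Ctrl and 3.33 ± 0.173 in Cu-Cys to 1.17 ± 0.103 in Cadict, and Hsf1 from 0.802 ± 0.0196 and 0.657 ± 0.0236 to 0.208 ± 0.00446. Hsp90aa1 and Hsp90ab1 themselves rose by 2.57 and 2.12 (log2, TMM) in Cadict against Ctrl, beside a median of -0.13 over all genes. A gene without change would therefore fall on this measure. The sequence that Hsp90aa1 shares with pseudogenes makes the measure less certain too. These ratios were not tested one by one, since 3 against 3 libraries cannot pass 0.05 in an exact test.

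**Figure D5:**
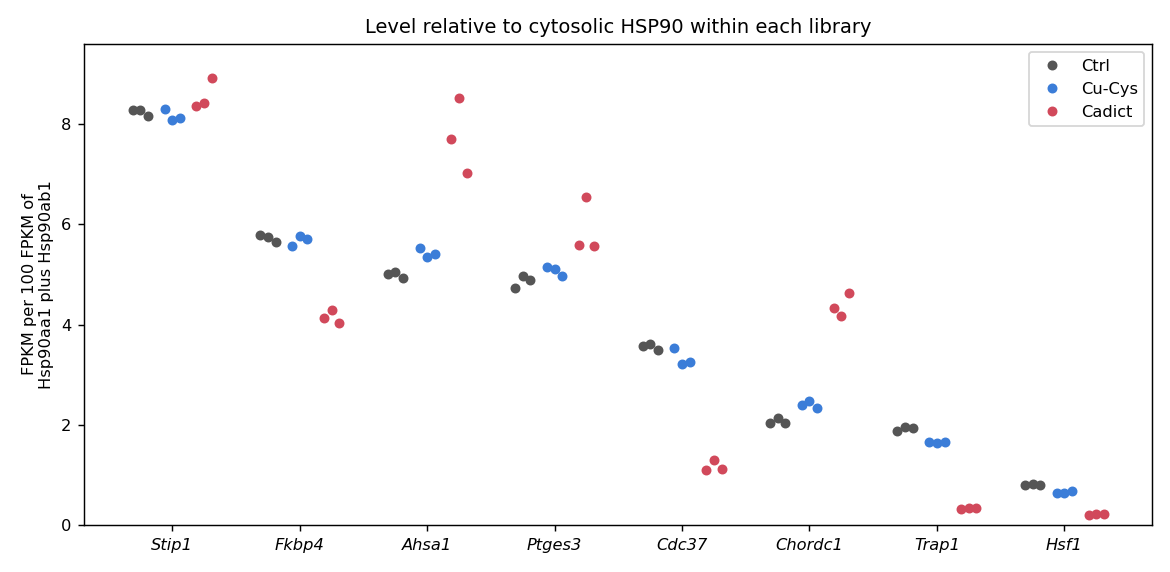
FPKM of 8 genes per 100 FPKM of Hsp90aa1 plus Hsp90ab1 (y axis from 0) within each of the 9 libraries, with the genes on the x axis and points coloured by group. Stip1 lies between 8.08 and 8.92 in all libraries and is slightly higher in Cadict. Ahsa1, Ptges3 and Chordc1 are higher in Cadict, and Fkbp4, Cdc37, Trap1 and Hsf1 are lower. Hsp90aa1 and Hsp90ab1 rose in Cadict, so a gene without change would be lower here.

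Cu-Cys against Ctrl asked what the copper and cystine part did without glucose oxidase and the peptide. It shares its Ctrl libraries with the comparison above, so the values of both stand side by side and are not independent. None of the 10 genes was called (0 higher, 0 lower) by edgeR's quasi-likelihood test, where 0.167% of all tested genes were called higher and 1.47% lower, and DESeq2 also called 0. At an unadjusted p under 0.05 there were 8 genes. The same 8 passed at an adjusted p of at most 0.05, all higher, against 22.6% of all genes that passed as higher and 22.4% as lower. Libraries of the 2 groups did not overlap for 8 genes, as for 61.2% of all genes, and the median log2 fold change of the 10 was 0.24 beside 0.0067 over all genes. Chordc1 (0.46 ± 0.0552, adjusted p = 1.19e-05), Ahsa1 (0.37 ± 0.0580, adjusted p = 0.000129) and Ptges3 (0.32 ± 0.0578, adjusted p = 0.000481) had the largest values, here by edgeR. Hsp90ab1 rose by 0.29 ± 0.0432 and Hsp90aa1 by 0.17 ± 0.0431, and Stip1 and Fkbp4 both rose by 0.24. Cdc37 passed narrowly at 0.16 ± 0.0599 (edgeR, adjusted p = 0.0401), with Cu-Cys replicate 1 the highest. Without that library it stood at 0.099 and did not pass, and the same loss of the pass was seen without any one of the Ctrl libraries or without Cu-Cys replicate 3. The values of Trap1 (0.029 ± 0.0481) and Hsf1 (-0.042 ± 0.0504) did not pass. With the deposited TPM 3 genes passed, Chordc1, Ahsa1 and Ptges3.

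Cadict against Cu-Cys asked what the complete nanomedicine added. Of the 10 genes 7 were called higher and 0 lower, beside 18.6% and 23.6% of all genes, and 9 passed as higher and Trap1 as lower, beside 40.3% and 45.6%. Libraries did not overlap for any of the 10, as for 85.0% of all genes. The median log2 fold change was 1.97 beside -0.10 over all genes. The 7 called genes were again Chordc1 (2.90 ± 0.0576), Ahsa1 (2.55 ± 0.0601), Hsp90aa1 (2.41 ± 0.0453), Ptges3 (2.25 ± 0.0598), Stip1 (2.101 ± 0.05), Hsp90ab1 (1.83 ± 0.0445) and Fkbp4 (1.58 ± 0.0443), with adjusted p from 7.08e-16 to 3.86e-14 in edgeR's quasi-likelihood test. Cdc37 stood at 0.52 ± 0.0603, Hsf1 at 0.35 ± 0.0521 and Trap1 at -0.30 ± 0.0499. With library totals Hsp90ab1 (0.95) and Fkbp4 (0.69) were no longer called, Trap1 was (-1.19), and Cdc37 and Hsf1 were again below 0, at -0.36 and -0.53. In that setting 6393 of the 11949 tested genes were called in either direction, and the median of all genes was -0.98. With the deposited TPM Stip1 (0.93) also lost its call, with Hsp90ab1 at 0.67 and Fkbp4 at 0.41, so that 4 genes were called higher and Trap1 lower. On TPM 6129 of 16503 genes were called in either direction, at a median of -0.47 over all genes.

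The wider HSP90 machinery held genes that rose and genes that fell. A list of 39 further paralogs and co-chaperones had 38 tested genes, of which 11 were called higher and 5 lower in Cadict against Ctrl, 23 passed as higher and 13 as lower, and the median was 0.31 beside -0.13 over all genes. The shares of all genes called were 20.7% higher and 27.1% lower, and those passing were 40.6% higher and 47.1% lower. With library totals the list's median was -0.65 beside -1.08 over all genes, with 4 called higher and 14 lower. Of the 11949 tested genes, 6976 were called in either direction in that setting. At 10 CPM or more on average, the largest called rises were those of Ahsa2 (2.83 ± 0.0544), a close relative of Ahsa1, of Ppid (2.53 ± 0.0552), which encodes the immunophilin cyclophilin 40, and of St13 (2.15 ± 0.0517), which encodes the HSP70-interacting protein HIP. The largest called falls at that average were those of Fkbp5 (-1.70 ± 0.0512), the immunophilin paralog of Fkbp4 and itself a glucocorticoid receptor target, and of Tti1 (-1.47 ± 0.0741) and Telo2 (-1.27 ± 0.128), 2 subunits of the TTT complex that helps mature PIKK kinases. Each kept its direction with library totals and TPM. Fkbp4 and Fkbp5 thus went opposite ways, from 363 ± 3.05 to 1279 ± 20.5 CPM and from 180.1 ± 4.88 to 55.6 ± 2.16 CPM. Hsp90b1, the endoplasmic reticulum paralog, which is outside the naming rule and was added after its values were seen, averaged 1505 ± 20.4 CPM in Ctrl, 1393 ± 40.0 in Cu-Cys and 1847 ± 33.7 in Cadict, a log2 fold change of 0.30 with TMM and of -0.66 with library totals. In Cu-Cys against Ctrl 16 of the 38 passed as higher and 2 as lower, beside 22.6% and 22.4% of all genes, with 0 called by edgeR.

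Of 15 listed HSF family members and HSF1 regulators, 11 were tested, and 3 were called higher and 2 lower in Cadict against Ctrl, with 6 passing as higher and 4 as lower and a median of 0.49 beside -0.13 over all genes (-0.46 beside -1.08 with library totals). Of all genes, 20.7% were called higher and 27.1% lower, and 40.6% passed as higher and 47.1% as lower. Vcp, an AAA ATPase that takes part in freeing HSF1 from HDAC6 and HSP90, had a log2 fold change of 1.82 ± 0.0533. Hsf2, the second heat shock factor, stood at 1.09 ± 0.0691 and Sirt1, the deacetylase that prolongs HSF1 binding, at 1.05 ± 0.0739. With library totals the values of Hsf2 and Sirt1 were 0.13 and 0.10 and did not pass, and with TPM they were -0.27 and -0.23. Vcp was no longer called under either scaling, where 0 of the 11 were called higher and 4 lower. Of all genes, 6976 of 11949 were called in either direction with library totals and 6854 of 16503 with TPM. In Cu-Cys against Ctrl 3 of the 11 passed as higher and 1 as lower, beside 22.6% and 22.4% of all genes.

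The 18 chaperone and ubiquitin genes listed as HSF1 targets were all called higher in Cadict against Ctrl, with a median of 3.75. Among all tested genes the called shares were 20.7% higher and 27.1% lower, and the median was -0.13. The list was drawn up with earlier results of these data known. Setting the 2 genes with at most 3 counts in each Ctrl library (Hspa1a and Hspb1) to a lower bound left the list's median unchanged. With library totals 17 of the 18 were called higher, at a median of 2.79 beside -1.08 over all genes. In that setting 6976 of the 11949 tested genes were called in either direction. Hsph1, which encodes the nucleotide exchange factor HSP110, went from 407 ± 10.4 CPM in Ctrl through 597 ± 19.9 in Cu-Cys to 11013 ± 298 in Cadict, and Hspa1b, an inducible HSP70, from 19.6 ± 1.19 through 32.4 ± 5.62 to 25794 ± 2926. Hspa1a was at 0 to 0.0436 CPM in the Ctrl libraries and at 1455, 1166 and 1408 CPM in Cadict. It is nearly identical to Hspa1b, and the split of reads between them is uncertain. In Cu-Cys against Ctrl 13 of the 18 passed as higher and 1 as lower, beside 22.6% and 22.4% of all genes. The list's median was 0.34 beside 0.0067 over all genes. By edgeR 0 of the 18 were called, beside 0.167% of all genes called higher and 1.47% lower.

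Transcripts of HSP90 client proteins were examined as a list of 42 genes, of which 36 were tested. In Cadict against Ctrl 4 were called higher and 11 lower, 8 passed as higher and 21 as lower, and the median was -0.52 beside -0.13 over all genes (-1.48 beside -1.08 with library totals). Over all genes 20.7% were called higher and 27.1% lower, and 40.6% passed as higher and 47.1% as lower. At 10 CPM or more on average, the largest called rises were those of Mlkl (1.999 ± 0.0474), the executor of necroptosis, Trp53 (1.81 ± 0.0639), the gene of p53, and Cdk4 (1.59 ± 0.0532), a G1 cyclin-dependent kinase and Cdc37 client. The largest called falls at that average were those of the mitotic kinase Plk1 (-3.74 ± 0.0966), the receptor tyrosine kinase Erbb2 (-1.96 ± 0.0741) and Eif2ak3 (-1.65 ± 0.0784), which encodes the endoplasmic reticulum stress kinase PERK. All 6 kept their direction with library totals and TPM. With library totals 1 of the 36 was called higher and 23 lower, and with TPM 0 and 25. The 3 named rises thus lost their call with TPM. Of all genes, 6976 of 11949 were called in either direction with library totals and 6854 of 16503 with TPM. In Cu-Cys against Ctrl 7 of the 36 passed as higher and 6 as lower, beside 22.6% and 22.4% of all genes. Erbb3, below 10 CPM on average, was the single gene called, lower at -1.15 ± 0.120, where 1.47% of all genes were called lower. It is named here after its value was seen, and stood at -3.13 ± 0.184 in Cadict against Ctrl.

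For 4 of the 10 genes, the 3 most similar profiles were taken among 8541 genes with at least 10 CPM on average, by the root mean square distance of log2 CPM centred over the 9 libraries. Nearest to Hsp90aa1 were Rnf11 (0.0535), Tra2a (0.0538) and Zscan29 (0.0704), and nearest to Hsp90ab1 were Lamp1 (0.0326), Plpbp (0.0340) and Tardbp (0.0397). Those nearest to Trap1 were Eif5b (0.0364), Rtcb (0.0373) and Snd1 (0.0428), and to Hsf1 Smap1 (0.0404), Gys1 (0.0437) and Pxdc1 (0.0452). All of these distances, in log2 units, rest on 9 libraries that fall into 3 groups, and so they mainly reflect the size of the group differences.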

How the data were processed

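RNA-seq of 9 MC38 libraries was used as deposited in 1 table. The submitters' processing notes name HISAT2 2.1.0, Bowtie2 2.3.4.3, RSEM 1.3.1 and the builds GRCh38.p13 and GRCm39. The authors deposited expected counts (estimated reads per gene, not normalized), FPKM, TPM and a signal (expected counts divided by 1 size factor per library), which was not used here. Depth was 17905769 to 18293060 counts per library.

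Expected counts were rounded, filtered with filterByExpr, scaled by TMM and fitted in edgeR 4.0.16 (R 4.3.3) with 1 quasi-likelihood model of the 3 groups, with no block. The Benjamini-Hochberg adjustment ran over the 11949 tested genes. A value after ± is a SE for a log2 fold change and otherwise a SD of 3 libraries. The procedure was run on simulated counts in which few genes changed, as many up as down. That run cannot test how libraries are scaled when many genes change. Alternatives were DESeq2 1.42.0 size factors, library totals, other filters, a replicate block, DESeq2's Wald test, limma 3.58.1 on log2 FPKM or TPM (pseudocounts 1 and 0.1) and leaving out each library. The settings for the lists were chosen after seeing the data.

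The 10 genes and the lists were chosen with earlier results of these data known. Named list genes were the 3 largest called rises and falls of each list in Cadict against Ctrl at 10 or more mean CPM, and the 2 largest called changes in Cu-Cys against Ctrl at that average, of which there were none. One gene that this rule selects is not reported here. Shared 50-base stretches were counted in GENCODE M21 transcripts on GRCm38.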

Additional observations from a re-analysis of the deposited data

How the results depend on the processing

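Of 570 refits of the 10 genes' fold changes, 519 kept direction and side of the 0.05 threshold, 25 lost the pass, 1 gained it and 25 changed sign. All sign changes came with library totals or limma on FPKM or TPM, whose construction leaves out the TMM factors. In Cadict against Ctrl, under library totals, FPKM with pseudocounts 1 and 0.1, and TPM with pseudocounts 1 and 0.1, Cdc37 stood at -0.27, -0.28, -0.29, -0.63 and -0.63 and Hsf1 at -0.64, -0.60, -0.62, -0.95 and -0.97. In Cadict against Cu-Cys, in the same order, Cdc37 stood at -0.36, -0.37, -0.37, -0.64 and -0.64 and Hsf1 at -0.53, -0.50, -0.52, -0.77 and -0.79, and in Cu-Cys against Ctrl Trap1 stood at -0.040, -0.043, -0.043, -0.11 and -0.12. Of the 8 genes that passed in Cu-Cys against Ctrl, 5 passed on FPKM with pseudocount 0.1 and 3 on TPM with either pseudocount; the cause was not tested. Replicate numbers did not pair the libraries (residual correlations -0.192 to 0.152 over 8551 genes). With the replicate block 7 genes passed in that comparison, since Cdc37 did not (adjusted p = 0.0513), and the counts called stayed at 7, 0 and 7. Leaving out 1 library gave 7 called genes throughout in both Cadict comparisons and 0 in Cu-Cys against Ctrl, and 7 to 8 passing genes there. Depth does not limit these genes, the lowest of which, Hsf1, had over 50 CPM in every library.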
